A study of Homo sapiens with 6 samples.

Results

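10 genes of plasma proteins that the adult or fetal liver makes, ALB, AFP, TTR, TF, RBP4, AHSG, FETUB, AMBP, SERPINA1 and VTN, were followed among the 19775 genes that the array reads with a probe set of their own. They were chosen by name, with earlier results of these data known. Each gene was read from a probe set annotated to its symbol alone, the brightest such probe set on average being used. Of the 10 genes, 9 had such a probe set. The mean signal of 8 of them exceeded the floor of 12.9, the median of all signals, below which a signal was not ranked. These 8 were tested within a fit over 11921 genes. FETUB lay at the floor, and both probe sets of VTN were annotated to a second gene, so neither was tested.

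The cells were HepG2, a human hepatoblastoma line that keeps many secretory functions of hepatocytes. They carried a small interfering RNA (siRNA), which directs the breakdown of its target mRNA, labelled siHNF4a or siControl. HNF4A, the target, is a nuclear receptor that binds many liver genes. Cells with siHNF4a had TGF-beta (3 ng/ml) for 24 h, 1.5 h or not at all (0 h), and cells with siControl had the same 3 conditions. Every combination was measured on 1 array, so there were 6 arrays and no replicate. All 6 came from the same line and had been transfected with an siRNA, and the labels do not say which cultures were transfected together. The labels give 1 siRNA name per arm, so effects of that siRNA on other transcripts cannot be told apart from those on its target. The HNF4A signal itself was not analysed here, which leaves the siRNA labels without a check. The labels do not say when after transfection each culture was harvested, so time after transfection and TGF-beta cannot be told apart either.

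Plasma proteins are among the most abundant products of hepatocytes. Albumin (ALB) carries fatty acids and hormones and sets the osmotic pressure of blood, and alpha-fetoprotein (AFP) is its fetal relative, encoded by the next gene and kept on in hepatoblastoma. Transthyretin (TTR) carries thyroxine and binds retinol-binding protein (RBP4), which moves vitamin A. Transferrin (TF) carries iron, AHSG and FETUB are the fetuins, AMBP gives alpha-1-microglobulin and bikunin, SERPINA1 gives the elastase inhibitor alpha-1-antitrypsin, and VTN gives the adhesion protein vitronectin. Liver-specific transcription of such genes rests on a small set of factors that includes HNF1, HNF4, FOXA and C/EBP proteins. TGF-beta signals through Smad proteins and is known to dampen several hepatocyte functions.

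Values were MAS5 signals, a linear brightness in arbitrary units scaled to a trimmed mean of 100 on every array. The highest signal per array was 11257.9 to 13115.7, and arrays correlated with each other at r of 0.944 to 0.986 over genes. SMAD7, an early target of TGF-beta, had signals of 316, 693 and 260.5 at 0, 1.5 and 24 h in siHNF4a cells and 309, 710.3 and 223 in siControl cells, and rose at 1.5 h (log2 difference 1.17 ± 0.15, limma adjusted p = 0.00266). All 5 hepatocyte markers (APOA1, APOB, APOA2, FGB, APOH) were above the floor on all 6 arrays, the lowest signal being 616.5. Of 10 markers of blood, endothelial and fibroblast cells, 3 to 5 were above the floor on an array, and PTPRC, CDH5 and VWF were at or under it on all 6. LYZ and the endothelial marker PECAM1 (47 to 127.2) were above it on all 6. The fibroblast marker PDGFRB was above it on every array but siHNF4a at 1.5 h. The summed signal of the 10 markers was 2441.3 to 3108.6 in siHNF4a cells and 2469.6 to 2981.9 in siControl cells, and most of it was LYZ (2208 to 2996).

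TTR, RBP4 and SERPINA1 changed under at least 1 of the treatments, and ALB, AFP, TF, AHSG and AMBP passed in none. On every array ALB, AFP, TF, AHSG and SERPINA1 were brighter than at least 99.71% of all probe sets. Whether signals this near the top of the scale understate a change was not tested. Of the 8 genes tested, 1 passed for the siRNA, TTR, which was lower with siHNF4a. That is beside 8.06% of all genes that passed (465 higher and 496 lower, or 558 and 385 after scaling to the median), so the count is near the background. With TGF-beta at 24 h, 3 of the 8 passed, RBP4 and TTR lower and SERPINA1 higher, beside 15% of all genes (861 higher and 932 lower). That share is larger than the background, but it rests on 8 genes. They were chosen with earlier results of these data known, so it is not an independent comparison. Passing means an adjusted p under 0.05 over all 11921 genes in limma's fit of siRNA and time. At an unadjusted p under 0.05 the counts were 3 of 8 for the siRNA, beside 2552 (21.4%) of all genes, and 4 of 8 for 24 h, beside 3313 (27.8%).

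The median log2 difference of the 8 was 0.08 for the siRNA and 0.13 for 24 h of TGF-beta, against -0.04 and -0.03 over all genes tested. Among the 1252 genes with a mean signal over 1000 the medians were 0.04 and 0.05. The single-array differences had 1 sign at all 3 times for 5 of the 8 genes (4 higher and 1 lower with siHNF4a), where 41.3% of all genes did so. For 24 h of TGF-beta the sign was shared by both siRNA arms for 8 of 8 genes, where 69.6% of all genes did so. Both shares include dim genes, and neither was counted among bright genes alone. In bulk RNA, fewer cells that make a transcript and less of it per cell cannot be told apart.

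**Figure D1:**
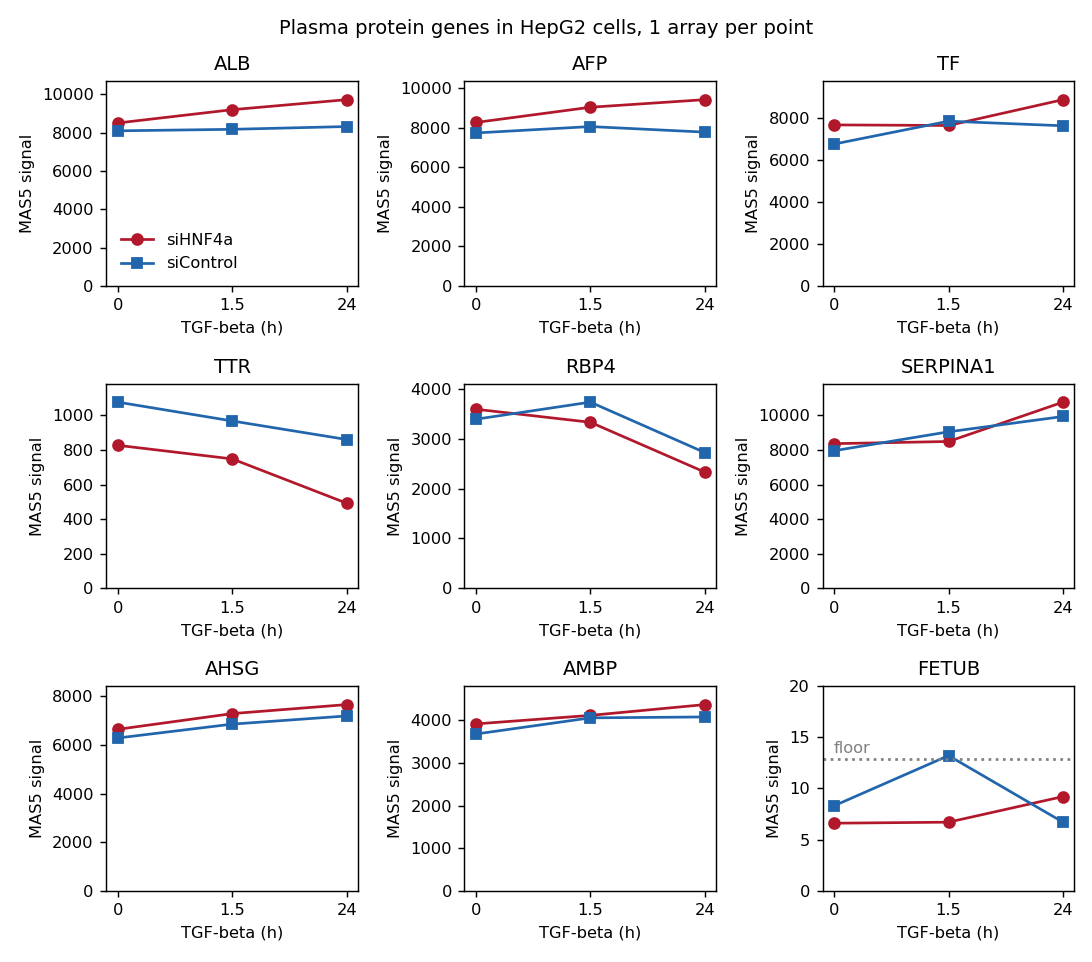
MAS5 signal (arbitrary units, linear axis from 0) of 9 plasma protein genes at 0, 1.5 and 24 h of TGF-beta, which are drawn as evenly spaced categories. Circles are siHNF4a cells and squares siControl cells, 1 array per point with no error bar, and the dotted line is the floor of 12.9. TTR is lower with siHNF4a at every time, RBP4 is lowest at 24 h in both arms, and FETUB is above the floor on 1 array.

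ALB had signals of 8509, 9203 and 9727 at 0, 1.5 and 24 h in siHNF4a cells, against 8099, 8178 and 8323 in siControl cells. All 3 siHNF4a arrays lay above all 3 siControl arrays, and within each arm the order followed the time. AFP had 8261, 9030.4 and 9414 in siHNF4a cells, against 7730.4, 8053 and 7772 in siControl cells, and again the arms did not overlap. The share of all genes whose arms do not overlap was not counted, so this separation has no background beside it. Neither the ALB nor the AFP difference passed in limma's fit. ALB was at a log2 difference of 0.16 ± 0.07 (SE, adjusted p = 0.227, 95% interval 0.00 to 0.31) and AFP at 0.18 ± 0.07 (adjusted p = 0.162, 95% interval 0.02 to 0.34). These intervals are not adjusted for the number of genes. At 24 h of TGF-beta ALB differed by 0.12 ± 0.09 (adjusted p = 0.431) and AFP by 0.10 ± 0.09 (adjusted p = 0.522). AFP gained 0.19 at 24 h in the siHNF4a arm and 0.01 in the siControl arm on the log2 scale.

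ALB and AFP are neighbours on chromosome 4, followed by AFM, which codes for afamin of the same family. AFM was at or under the floor on all 6 arrays, with signals of 0.7 to 7.1. The 250 bases before the annotated starts of ALB (chr4:73404037-73404286, plus strand) and AFP (chr4:73435971-73436220, plus strand), from RefSeq on build GRCh38.p14, are shown because both genes kept high signals and both hold the core of an HNF1 binding site, GTTAAT, in capitals. SERPINA1 (chr14:94388603-94388852, minus strand) holds it as well. Of the 9 genes searched, which leave out TTR, AHSG (chr3:186612810-186613059, plus strand) is the only one with the HNF4 motif CAAAGTCCA, in capitals on the other strand.
ALB: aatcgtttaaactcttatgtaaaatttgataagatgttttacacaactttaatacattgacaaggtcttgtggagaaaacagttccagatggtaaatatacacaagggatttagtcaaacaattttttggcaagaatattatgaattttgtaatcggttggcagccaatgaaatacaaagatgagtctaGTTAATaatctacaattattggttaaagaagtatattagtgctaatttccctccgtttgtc
AFP: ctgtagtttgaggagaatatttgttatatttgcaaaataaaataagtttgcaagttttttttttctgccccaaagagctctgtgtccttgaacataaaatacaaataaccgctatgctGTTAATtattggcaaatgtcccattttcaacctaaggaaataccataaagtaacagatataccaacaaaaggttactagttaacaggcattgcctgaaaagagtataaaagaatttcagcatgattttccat
SERPINA1: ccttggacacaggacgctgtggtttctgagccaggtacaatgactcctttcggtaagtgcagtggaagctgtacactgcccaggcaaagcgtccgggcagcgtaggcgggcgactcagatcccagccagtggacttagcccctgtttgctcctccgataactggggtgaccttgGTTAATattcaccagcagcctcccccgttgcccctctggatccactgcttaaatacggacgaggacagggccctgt
AHSG: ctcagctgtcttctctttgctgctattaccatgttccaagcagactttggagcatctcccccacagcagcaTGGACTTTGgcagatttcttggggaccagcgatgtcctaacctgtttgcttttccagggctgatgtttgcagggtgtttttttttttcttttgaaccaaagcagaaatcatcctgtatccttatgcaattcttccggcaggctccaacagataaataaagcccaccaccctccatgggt

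Where a gene had several annotated starts (TF, FETUB, RBP4 and SERPINA1), the window before the most downstream one was used. Both strands of it were searched for 3 motifs that do not overlap in these windows, in the promoters of 9 of the 10 genes (all but TTR). The HNF1 core began 61 bases before the start in ALB, 132 bases in AFP and 76 bases in SERPINA1, so 3 of 9 genes held it, against 6.23% of all 35116 windows. The HNF4 motif began 179 bases before the start in AHSG, so 1 of 9 held it, against 0.325% of windows. The Smad box CAGACA was in 0 of 9 windows, against 13.6% of all windows, and the window not used for SERPINA1 held 2, at 175 and 147 bases before its start. A match is only a match of letters, and a window without one says nothing about the factor. The 3 genes with the HNF1 core differed by 0.16, 0.18 and 0.03 with siHNF4a on the log2 scale, and AHSG by 0.09, none of which passed.

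TTR was lower with siHNF4a and lower at 24 h of TGF-beta. Its signal was 826.5, 748 and 492 at 0, 1.5 and 24 h in siHNF4a cells, against 1076, 967 and 860 in siControl cells. Every siHNF4a array lay below every siControl array, a separation whose share over all genes was not counted. In both arms the signal was lowest at 24 h. With siHNF4a the gene fell by 0.52 on the log2 scale (SE 0.12, limma adjusted p = 0.0114, 95% interval -0.77 to -0.27), or to 0.698 of the siControl level. At 0, 1.5 and 24 h the single-array differences were -0.38, -0.37 and -0.81. With TGF-beta at 24 h it fell by 0.54 (SE 0.14, adjusted p = 0.0185), with -0.75 in siHNF4a cells and -0.32 in siControl cells. In siHNF4a cells at 24 h TTR stood 1.13 log2 units below siControl cells at 0 h (log2 difference -1.13), the only one of the 8 genes past 2-fold in that comparison of 2 arrays, which 13.2% of all genes passed. In no pair of arrays at 1 time or in 1 arm was any of the 8 past 2-fold, where 3.1%, 4.81% and 5.28% of all genes were for the siRNA at 0, 1.5 and 24 h, and 9.12% and 5.71% for 24 h of TGF-beta in siHNF4a and siControl cells.

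Both TTR calls were lost in some fits with arrays left out. Leaving out 1 array removes the pair of its time from the siRNA difference. Without the 24 h pair, or either array of it, the siRNA difference was -0.38 (limma adjusted p = 0.215 to 0.229). Over 19 alternatives, 6 of which lost the call, these leave-outs among them, the adjusted p ran from 0.00258 to 0.418. The 24 h difference was -0.32 (adjusted p = 0.388) without the siHNF4a 24 h array and -0.43 (adjusted p = 0.208) without the siHNF4a 0 h array, and over 17 alternatives, 5 of which lost the call, the adjusted p ran from 0.0152 to 0.388. The sign was negative in every alternative of both, but many of these leave the estimate unchanged. With 1 bright probe set, TTR stayed at -0.52 for the siRNA under other floors, other probe set rules, no filter and no trend. Its single-array siRNA differences were all negative, so leaving out arrays could not turn that sign.

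RBP4, the partner of transthyretin in plasma, had signals of 3590.4, 3329 and 2329 at 0, 1.5 and 24 h in siHNF4a cells, against 3390.3, 3733 and 2722 in siControl cells. Both 24 h arrays lay below the other 4, a separation whose share over all genes was not counted, and the siRNA arms overlapped. At 24 h of TGF-beta RBP4 fell by 0.47 on the log2 scale (SE 0.11, limma adjusted p = 0.00811), with -0.62 in siHNF4a cells and -0.32 in siControl cells. The siRNA difference was -0.10 ± 0.09 (adjusted p = 0.562, 95% interval -0.29 to 0.09). Its sign was not shared by the times, with 0.08, -0.17 and -0.22 at 0, 1.5 and 24 h. The 24 h call was lost without the siHNF4a 24 h array (-0.38, adjusted p = 0.23), the siHNF4a 0 h array (-0.33, adjusted p = 0.241) or the siControl 24 h array (-0.56, adjusted p = 0.0569). It was lost in 7 of 16 alternatives, over which the adjusted p ran from 0.00236 to 0.401.

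SERPINA1 had signals of 8362, 8488 and 10763 at 0, 1.5 and 24 h in siHNF4a cells, against 7954, 9047 and 9934 in siControl cells. Both 24 h arrays lay above the other 4, a separation whose share over all genes was not counted. At 24 h of TGF-beta it rose by 0.34 ± 0.09 on the log2 scale (SE, limma adjusted p = 0.0184), or 1.27-fold, with 0.36 in siHNF4a cells and 0.32 in siControl cells. With siHNF4a it differed by 0.03 ± 0.07 (adjusted p = 0.859, 95% interval -0.12 to 0.19). The 24 h call was lost in 9 of 17 alternatives. Leaving out 1 array gave 0.28 without siHNF4a 24 h (adjusted p = 0.304), 0.37 without siHNF4a 0 h (0.087), 0.41 without siControl 24 h (0.0949) and 0.31 without siControl 0 h (0.135). Over the 17 alternatives its adjusted p ran from 0.0106 to 0.447.

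TF had signals of 7682, 7655 and 8887 at 0, 1.5 and 24 h in siHNF4a cells, against 6768, 7859.8 and 7640.5 in siControl cells. Its highest value was siHNF4a at 24 h and its lowest siControl at 0 h, and the other 4 arrays lay between 7640.5 and 7859.8. It differed by 0.12 ± 0.08 with siHNF4a (adjusted p = 0.408, 95% interval -0.04 to 0.29) and by 0.19 ± 0.09 at 24 h (adjusted p = 0.201) in limma's fit. AHSG had 6645, 7291 and 7662 in siHNF4a cells, against 6287, 6858 and 7194 in siControl cells. In both arms it was lowest at 0 h and highest at 24 h. It differed by 0.20 ± 0.09 at 24 h (unadjusted p = 0.0391, adjusted p = 0.154), with 0.21 and 0.19 in the siHNF4a and siControl arms, and by 0.09 ± 0.07 with siHNF4a (adjusted p = 0.549). AMBP had 3917.5, 4117.5 and 4371 in siHNF4a cells, against 3680.1, 4059.5 and 4081 in siControl cells. It was lowest at 0 h in both arms, with a difference of 0.15 ± 0.10 at 24 h (adjusted p = 0.326) and 0.07 ± 0.08 with siHNF4a (adjusted p = 0.674).

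**Figure D2:**
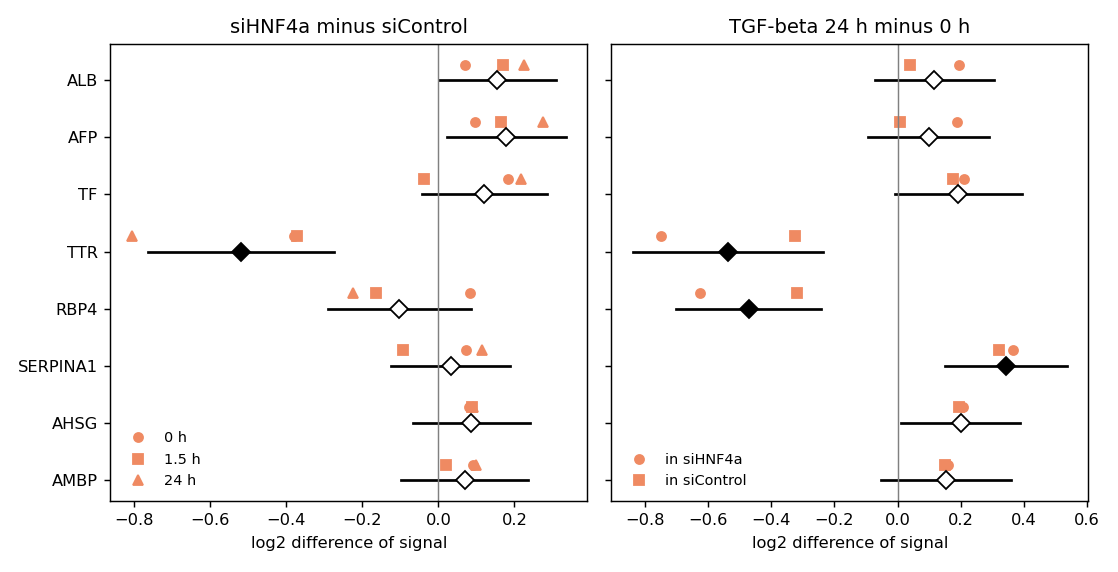
Log2 difference of signal for the 8 genes tested, siHNF4a minus siControl over 3 times at left and 24 h minus 0 h of TGF-beta over both siRNAs at right. Diamonds are limma's estimates with 95% intervals, filled where the adjusted p was under 0.05, and small symbols are the differences of single arrays at each time or in each arm. TTR at left and TTR, RBP4 and SERPINA1 at right are filled.

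FETUB, the other fetuin, lies next to AHSG on chromosome 3. Its signals were 6.6, 6.7 and 9.2 at 0, 1.5 and 24 h in siHNF4a cells, against 8.3, 13.2 and 6.7 in siControl cells. It was above the floor on 1 of 6 arrays, and its remaining probe sets were above it on 0 arrays, so no difference was measurable. HRG, which codes for histidine-rich glycoprotein and follows FETUB, was also above the floor on 1 array. VTN shared both its probe sets with SEBOX, a homeobox gene beside it on chromosome 17, so no VTN value is given. The brighter of these shared probe sets, 204534_at, had signals of 332, 249 and 553 at 0, 1.5 and 24 h in siHNF4a cells, against 239.9, 319.8 and 595 in siControl cells. Both 24 h arrays lay above the other 4, a separation whose share over all probe sets was not counted. The differences of 0.74 and 1.31 in the siHNF4a and siControl arms were not tested.

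At 1.5 h of TGF-beta 0 of the 8 genes passed in limma's fit, beside 0.101% of all genes (10 higher, 0.0839%, and 2 lower, 0.0168%), and 0 of 8 had an unadjusted p under 0.05, where 364 genes had one. The adjusted p was 1 for each of the 8, and the differences lay between -0.15 for TTR and 0.13 for AHSG on the log2 scale. A further fit tested whether the siRNA difference at 24 h departed from its mean at 0 and 1.5 h. In it 0 of 8 genes and 0% of all genes passed with limma, and 543 genes had an unadjusted p under 0.05, of which 0 were among the 8. TTR had the lowest p of the 8, with a term of -0.43 ± 0.23 (unadjusted p = 0.0924, adjusted p = 0.999). For AFP the term was 0.15 ± 0.16. A larger TTR difference at 24 h than at the other times was therefore not shown, in a fit with 1 residual degree of freedom.

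Other probe sets of the same genes were set beside the ones used, in a fit of 22555 probe sets chosen after the data were seen. For ALB the probe set 1565228_s_at had the sign of the one used, at 0.17 ± 0.08 with siHNF4a (limma adjusted p = 0.23). The dimmer 214842_s_at had 284, 419 and 377 at 0, 1.5 and 24 h in siHNF4a cells, against 531, 440.5 and 545 in siControl cells. It went the other way, at -0.50 ± 0.15 (adjusted p = 0.0511, beside 6.48% of probe sets called for the siRNA). The dimmest, 214837_at, had 95.6, 21.6 and 43.1 in siHNF4a cells, against 73.5, 14 and 33.2 in siControl cells. It fell by 2.27 on the log2 scale at 1.5 h (SE 0.29, adjusted p = 0.00211, beside 0.0754% of probe sets called) and fell by 1.15 at 24 h (SE 0.29, adjusted p = 0.0175, beside 11.8%). The bright ALB probe sets did not show this, with 0.06 ± 0.09 and 0.17 ± 0.09 at 1.5 h (adjusted p = 1 for both). Which transcript or part of it each probe set reads was not tested.

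For SERPINA1 the probe set 230318_at had 755, 517 and 1166 at 0, 1.5 and 24 h in siHNF4a cells, against 461, 641 and 785 in siControl cells. It rose at 24 h by 0.70 ± 0.19 (limma adjusted p = 0.0265), the same sign as the probe set used, and 211429_s_at was at 0.26 ± 0.09 (adjusted p = 0.0943). For RBP4 the dim 222049_s_at was at -0.46 ± 0.31 at 24 h (adjusted p = 0.39), close to the value of the bright one but with a far wider error. TF 214063_s_at was at 0.23 ± 0.09 at 24 h (adjusted p = 0.133) while the dim TF 214064_at was at -0.27 ± 0.37 at 24 h (adjusted p = 0.708) and -0.51 ± 0.30 with siHNF4a (adjusted p = 0.378). AHSG 204551_s_at was at 0.05 ± 0.10 (adjusted p = 0.8). AMBP 214425_at was under the floor on both 0 h arrays and at 22.3 and 30.2 in siHNF4a cells and 21.6 and 22.2 in siControl cells at 1.5 and 24 h. TTR and AFP had 1 probe set each, so their values have no such check.

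**Figure D3:**
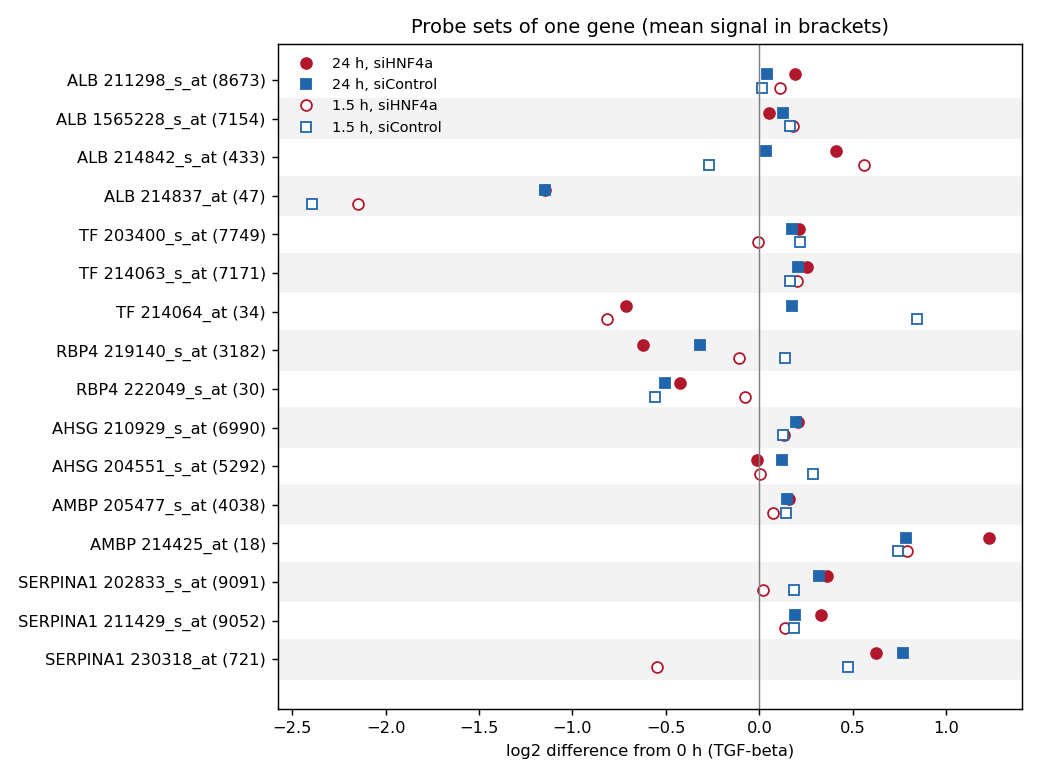
Log2 difference of signal from 0 h for each probe set of ALB, TF, RBP4, AHSG, AMBP and SERPINA1 that was above the floor on at least 4 arrays, with its mean signal in brackets. Filled symbols are 24 h and open symbols 1.5 h of TGF-beta, circles siHNF4a and squares siControl, 1 array against 1 array each. ALB 214837_at stands at -2.15 and -2.39 at 1.5 h, while ALB 211298_s_at and 1565228_s_at lie near 0. ALB 214842_s_at stands at 0.56 in siHNF4a and -0.27 in siControl cells at 1.5 h.

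The small gains of the bright genes depended on how arrays were scaled. As deposited, 6 of the 8 genes had a positive siRNA difference and 6 of 8 a positive 24 h difference. After quantile normalization, which forces 1 distribution of signals on all arrays, 3 and 4 of the 8 were positive. With it the siRNA difference was 0.06 for ALB, 0.08 for AFP, 0.02 for TF, -0.01 for AHSG, -0.01 for AMBP and -0.08 for SERPINA1. The 24 h difference became -0.05 for ALB and -0.05 for AFP, and SERPINA1 was at 0.20 and no longer passed (adjusted p = 0.0891). TTR stayed at -0.53 for the siRNA and -0.55 at 24 h, and RBP4 was at -0.57 at 24 h (adjusted p = 0.00236), all of which still passed. The top of the scale differed between arrays as deposited, with the highest signal at 11529.9, 12687.1 and 13115.7 at 0, 1.5 and 24 h in siHNF4a cells and 11257.9, 12288.2 and 11521.9 in siControl cells. Its part in the gains of ALB and AFP was not tested.

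**Figure D4:**
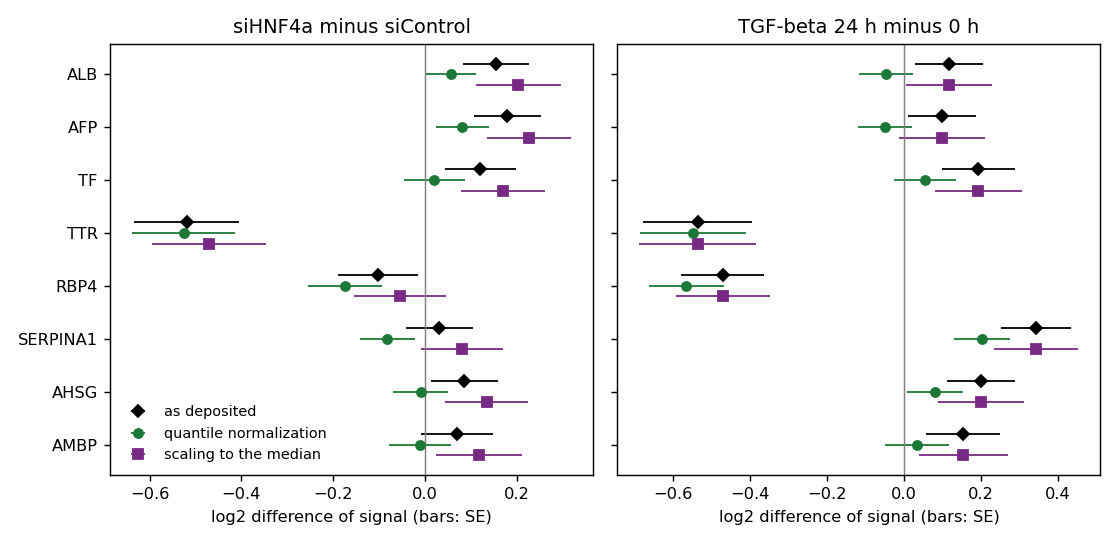
Log2 difference of signal with its SE for the 8 genes under 3 scalings, siHNF4a minus siControl at left and 24 h minus 0 h of TGF-beta at right. Diamonds are the signals as deposited, circles after quantile normalization and squares after scaling to a common median. The circles of ALB, AFP, TF, AHSG, AMBP and SERPINA1 lie left of their diamonds, and TTR lies left of 0 by more than its SE under all 3.

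Across the 6 arrays ALB and AFP ran together (Pearson r of log2 signal 0.973), as did AHSG and AMBP (0.97), and ALB ran against TTR (-0.949), while TTR and RBP4 were at 0.767. These are descriptions over 6 arrays that share the treatments and the scaling. The genes named next are the highest of 6238 values for each gene, so their r is high by selection. Among 6238 genes with a signal of at least 100 on all arrays, those most like ALB were RPL10A (0.987), PRKACB (0.981) and CPD (0.981). AFP was most like ALB, ASPH (0.972) and VDAC2 (0.971). TTR was most like MFF (0.997), EOLA1 (0.993) and SMLR1 (0.992). TF was most like A2M (0.983), LAMB1 (0.982) and EXOC1 (0.981), and RBP4 like SLC5A6 (0.998) and EXOSC6 (0.997). AHSG came closest to KRT18 (0.986) and EEF1A1 (0.985), AMBP to SLC35E1 (0.995) and UBAC2 (0.984), and SERPINA1 to ACVR2B (0.994), ZNF232 (0.991) and CSNK2A1 (0.99).

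Receptors and binding partners of these proteins included genes of the asialoglycoprotein and vitronectin receptors that changed. Of 17 such genes 13 were tested, and with siHNF4a 1 was higher and 1 lower, beside 3.9% and 4.16% of all genes. This list and those that follow were chosen with earlier results of these data known. ASGR1, a subunit of the asialoglycoprotein receptor that clears desialylated plasma proteins, had 467, 446 and 190.2 at 0, 1.5 and 24 h in siHNF4a cells, against 878, 856 and 653 in siControl cells. It fell by 1.21 on the log2 scale (SE 0.15, limma adjusted p = 0.000196). ITGAV, the alpha-v integrin chain of vitronectin receptors, rose by 0.48 ± 0.09 (adjusted p = 0.00323). At 24 h of TGF-beta 3 were higher and 2 lower, beside 7.22% and 7.82% of all genes. ITGAV rose by 1.06 ± 0.11 (adjusted p = 1.77e-05), PLAUR, the urokinase receptor, which also binds vitronectin, by 1.03 ± 0.26 (adjusted p = 0.0156) and ITGB5, a partner chain of ITGAV, by 0.80 ± 0.13 (adjusted p = 0.000613). ASGR1 fell by 0.86 (adjusted p = 0.0062), and ASGR2, the other subunit, named after its value was seen, fell by 0.58 (adjusted p = 0.0134). The transferrin receptor TFRC did not pass (0.27 ± 0.10, adjusted p = 0.0929). Without the siHNF4a 24 h array the 24 h difference was -0.44 for ASGR1 (adjusted p = 0.266), 0.67 for PLAUR (0.343) and 0.78 for ITGB5 (0.0575), and PLAUR was at 0.75 without the siHNF4a 0 h array (0.255). ITGB5 was at 0.38 (adjusted p = 0.482) with the next brightest probe set of each gene.

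Among 29 other plasma proteins of the liver 24 were tested. With siHNF4a 1 was higher and 2 lower, beside 3.9% and 4.16% of all genes. At 24 h of TGF-beta 2 were higher and 3 lower, beside 7.22% and 7.82%, so both counts are near the background. The list's median was -0.17 for the siRNA and 0.06 for 24 h, beside -0.04 and -0.03 over all genes. SERPINA3, the protease inhibitor alpha-1-antichymotrypsin and a member of the serpin cluster that holds SERPINA1, had 2767, 2627 and 7198 at 0, 1.5 and 24 h in siHNF4a cells, against 1539, 1904 and 5339 in siControl cells. It rose by 0.58 ± 0.09 with siHNF4a (limma adjusted p = 0.0015) and by 1.59 ± 0.12 at 24 h (adjusted p = 1.49e-06). CPN2, the regulatory subunit of carboxypeptidase N, had 145, 99.7 and 19.6 in siHNF4a cells, against 186, 241 and 65.7 in siControl cells. It fell by 1.12 with siHNF4a (adjusted p = 0.00774) and fell by 2.19 at 24 h (adjusted p = 0.00014). ORM1, the acute-phase protein orosomucoid, fell by 0.35 with siHNF4a (adjusted p = 0.0277). HPX, the haem carrier hemopexin, rose by 0.63 at 24 h (adjusted p = 0.0336). SERPINA6, the cortisol carrier next to SERPINA1, fell by 0.57 (adjusted p = 0.0177), as did AGT, the precursor of angiotensin, named after its value was seen, by 0.43 (adjusted p = 0.0128).

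Several of these calls were lost when 1 array was left out, which for the siRNA removes the pair of its time. For the siRNA, leaving out either 1.5 h array gave -1.05 for CPN2 (adjusted p = 0.0708 without siHNF4a and 0.0742 without siControl) and -0.35 for ORM1 (0.0968 and 0.0966). Leaving out either 24 h array gave -0.81 for CPN2 (0.17 without siHNF4a and 0.188 without siControl) and -0.26 for ORM1 (0.342 and 0.346). HPX lost its 24 h call without any 1 of the 4 arrays at 0 and 24 h (0.52 to 0.75), and was at 0.11 (adjusted p = 0.768) with the next brightest probe set. SERPINA6 lost its call without siHNF4a 24 h (-0.65, adjusted p = 0.139), siHNF4a 0 h (-0.51, 0.188) or siControl 24 h (-0.50, 0.201). The 24 h calls of SERPINA3 and CPN2 held without any 1 array.

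Of 18 transcription factors that act on the albumin and AFP genes 14 were tested. With siHNF4a 1 was higher and 0 lower, beside 8.06% of all genes called in either direction, and at 24 h of TGF-beta 1 was higher and 2 lower, beside 15%. Both counts are near the background. CEBPA, a main activator of hepatocyte genes, had 740.1, 653 and 286 at 0, 1.5 and 24 h in siHNF4a cells, against 601, 780.5 and 224 in siControl cells. It fell at 24 h by 1.40 on the log2 scale (SE 0.16, limma adjusted p = 6.51e-05), a call that held without any 1 array. DBP, a factor named for its binding to the albumin promoter, fell by 1.18 (adjusted p = 0.0247), at signals near the floor, 33.1, 24.2 and 16.8 in siHNF4a cells against 34.6, 29.1 and 13.2 in siControl cells. ZBTB20, a repressor of AFP in the adult mouse liver, rose by 0.72 ± 0.21 (adjusted p = 0.0278). PROX1, a hepatoblast regulator, rose by 0.42 ± 0.12 with siHNF4a (adjusted p = 0.0461). CEBPB was at -0.05 ± 0.12 and FOXA2 at -0.10 ± 0.16 at 24 h, and neither passed. DBP and ZBTB20 lost their calls without any 1 of the 4 arrays at 0 and 24 h (-1.44 to -0.93 and 0.51 to 0.94), and DBP was at -0.58 with a floor at the 60th percentile (adjusted p = 0.175). PROX1 lost its call without the 1.5 h array of siHNF4a (0.35, adjusted p = 0.172) or siControl (0.35, 0.165), and without the 24 h array of siHNF4a (0.40, 0.287) or siControl (0.40, 0.28). Leaving out either array of a time removes the same pair.

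AFP is itself read as a marker of hepatoblasts, and of 12 other hepatoblast and oncofetal markers 9 were tested. With siHNF4a 2 were higher and 0 lower, beside 3.9% and 4.16% of all genes, and at 24 h of TGF-beta 3 were higher and 0 lower, beside 7.22% and 7.82%. CD24, a surface protein of progenitor cells, had 4038, 4152 and 6802 at 0, 1.5 and 24 h in siHNF4a cells, against 2147, 2052 and 3512 in siControl cells. It rose by 0.96 ± 0.08 with siHNF4a (limma adjusted p = 9.44e-06) and by 0.73 ± 0.10 at 24 h (adjusted p = 0.000184). KRT19, a keratin of bile duct and progenitor cells, rose by 0.57 ± 0.09 (adjusted p = 0.0018) and by 0.84 ± 0.12 (adjusted p = 0.000212). PROM1, the progenitor antigen CD133, rose at 24 h by 1.32 ± 0.21 (adjusted p = 0.000613). GPC3, the oncofetal glypican, was at 0.14 ± 0.08 with siHNF4a (adjusted p = 0.33) and -0.05 ± 0.10 at 24 h, and EPCAM was at -0.33 ± 0.10 (adjusted p = 0.0547) and 0.00 ± 0.12, so these did not pass. Without the siHNF4a 24 h or the siControl 24 h array the siRNA difference of KRT19 was 0.43 (adjusted p = 0.0875 and 0.0832). Leaving out either removes the 24 h pair from this difference. With the mean of its probe sets KRT19 was at 0.22 (adjusted p = 0.321) for the siRNA and 0.46 (adjusted p = 0.0903) at 24 h.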

How the data were processed

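Biotin-labelled RNA of 6 HepG2 cultures was read on Affymetrix arrays, per the labels. The deposited values are linear intensities (MAS5 signals) made by the authors with MAS5 5.0 and GCOS, per the submitters' processing notes. The trimmed mean (2% off each end) of 100 on every array is that of MAS5 global scaling. Neither detection calls nor files of single probes were used here. The members and gene lists were chosen with earlier results of these data known.

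Of 54675 probe sets, 41097 had 1 gene symbol in the platform annotation, 1801 several and 11777 none, the 62 control probe sets included. Only single-symbol probe sets were named, and the brightest on average stood for its gene. Signals under the floor of 12.9 were set to it before log2. The 11921 genes with a mean signal above it entered limma 3.58.1 in R 4.3.3 (lmFit, eBayes with an intensity trend, Benjamini-Hochberg, threshold 0.05) with siRNA and time as terms. The fit had 2 residual and 12.65 prior degrees of freedom, and the added term for siRNA at 24 h left 1 and 8.556. With 1 array per combination a gene's own error is how far a difference varies among times or among siRNAs, and that spread may be technical. It is combined by limma with a prior drawn from all genes along the trend with signal. With 12.65 prior against 2 residual degrees of freedom, the errors and p-values rest mostly on this prior. The number of arrays limits the precision.

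The naming rule gave the members, SMAD7, up to 4 called genes of each list and comparison, and the 3 genes most like each member in Pearson r, of which some are given. Cell type markers were a list of their own. Neighbouring genes, AGT, ASGR2 and the list genes that did not pass (TFRC, CEBPB, FOXA2, GPC3, EPCAM) were named outside the rule, after their values were seen. The fit was tested on simulated data with known changes. Alternatives were 2 scalings, other floors, a pseudocount, other probe set rules, no filter on dim genes, no trend and leaving out arrays. The next brightest probe set and the fit of every probe set were chosen after seeing the data. Figures were made with Python 3.11.15, pandas 2.3.3 and matplotlib 3.10.9.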

Additional observations from a re-analysis of the deposited data

Results flagged for a closer look

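TF and RBP4 had opposite signs in the arms at 1.5 h of TGF-beta. TF differed by -0.01 on the log2 scale in siHNF4a cells and by 0.22 in siControl cells, and RBP4 by -0.11 in siHNF4a cells and by 0.14 in siControl cells. The difference between the arms at 1.5 h was not tested, each value rests on 1 array against 1, and neither gene passed at 1.5 h over both arms. The probe set 204534_at, annotated to both SEBOX and VTN and used in no test, had a mean log2 difference of 1.02 at 24 h of TGF-beta. It was higher than at 0 h in both arms (0.74 in siHNF4a cells and 1.31 in siControl cells).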

How the results depend on the processing

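Over the 8 genes and 4 comparisons, 496 alternative values were computed. None of the called differences changed sign, and of their 69 alternative values 42 kept the call and 27 lost it. Many of these 69 repeat the main estimate, because other floors or no trend leave a bright gene's difference unchanged. The kept sign is therefore a weak check. Of all 496 values 33 had another sign than the value reported, 11 of them under quantile normalization, and 2 of the 33 passed, both for ALB. The siRNA count of 1 gene became 0 with probe sets averaged per gene, with no filter on dim genes and with no trend, and 0 to 1 with arrays left out. The 24 h count of 3 became 0 under the same 3 settings, 1 with the next brightest probe set and 0 to 3 with arrays left out. The 1.5 h count of 0 became 1 without probe sets ending in _x_at or _s_at. That setting leaves the dim probe set 214837_at for ALB and reversed ALB to -2.27 at 1.5 h (limma adjusted p = 0.000857) and -1.15 at 24 h (adjusted p = 0.0133). With averaged probe sets, no filter and no trend, the adjusted p was 0.0936, 0.418 and 0.162 for TTR with the siRNA. At 24 h it was 0.0844, 0.355 and 0.157 for TTR, 0.0778, 0.292 and 0.165 for RBP4, and 0.17, 0.447 and 0.259 for SERPINA1. With no filter on dim genes none of the genes that the naming rule gave kept its call for the siRNA or at 24 h. The cause was not tested. Over all genes, the siRNA count of 961 became 227, 0 and 45 under these 3 settings and the 24 h count of 1793 became 806, 1 and 457. The 1.5 h count of 12, SMAD7 among them, became 0 in each, and 7 without probe sets ending in _x_at or _s_at. With arrays left out the counts ran from 239 to 942 or, without a pair of 1 time, 242 to 943 for the siRNA, 295 to 2038 for 24 h and 7 to 26 for 1.5 h. The added term called 0 genes, 4 with a floor at the 40th percentile, 24 with a pseudocount and 639 with no filter. Its values with an array left out have no residual degree of freedom and were not run. The share of higher calls for the siRNA was 59.2% after scaling to the median and 48.4% as deposited, and no scaling moved the median of all genes by over 0.1. With siRNA and time as terms, the fit already compared siRNAs within each time and times within each siRNA arm. No further pairing was possible because the labels carry no replicate numbers that groups share. Signals near the floor (FETUB, AFM, HRG) have no order.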
